A study of Mus musculus with 3 samples.

Results

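An epithelial clone derived from cardiosphere-derived cells was compared with primary epicardial cells, gene by gene, over all genes of the deposited table. The comparison takes 6 of the 9 RNA-seq libraries of the series, 3 of the clone (CDC-EpiC) and 3 of the primary cells (pEpiC), chosen by their column names and not by any measured value. Of 18245 genes in the table, 13547 had enough reads in these 6 libraries to be tested.

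The labels give C57BL/6 mice and ventricle epicardium for all samples, while the methods describe stripped ventricle epicardium for the explants and digested hearts for the primary cells. The clone was raised from cardiosphere-derived cells (CDC), which grow out of epicardial explants and pass through floating spheres, after 2 weeks in SB-431542 at 10 µM, a compound that blocks signalling by the receptor kinases for TGF-beta. It was lifted inside a cloning cylinder and replated, timed trypsin served to separate off mesenchymal cells, and all of its libraries stem from 1 clone. Primary epicardial cells were released from hearts of young adult mice by enzyme and kept in a medium of their own, with no inhibitor named for them. By the methods, clone and primary cells therefore differ in starting tissue, passage through spheres, cloning, timed trypsin, inhibitor and medium at once. These cannot be told apart here. The values of the 3 CDC libraries are given side by side where they help to place a gene.

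The epicardium is a mesothelium, a flat epithelial sheet that covers the heart. Its cells are known for the transcription factors Wt1, Tbx18 and Tcf21, for uroplakins and mesothelin at their surface and for the synthesis of retinoic acid. In development and after injury they can pass through an epithelial-to-mesenchymal transition, in which cell junctions are given up for a contractile, matrix-making state. TGF-beta is a strong inducer of that transition, and primary epicardial cells often drift toward it in culture.

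Each of the 6 libraries held between 22008803 and 22619055 expected counts. The 10 genes with the most counts took 5.22% to 5.36% of a clone library and 8.64% to 9.08% of a pEpiC library. The labels speak of triplicates and separate samples, and the study's methods of 2 biological replicates a condition. Neither says which libraries stem from separate animals or cultures, so p-values measure the spread between these libraries, which may be technical. Counts of libraries of a kind differed by more than the sampling of reads allows. In bulk RNA, fewer cells of a type and less RNA per cell cannot be told apart. Levels are CPM (counts per 1000000 after TMM scaling), given as mean ± SD with n = 3. Changes are log2 of clone over pEpiC from edgeR, with a standard error (SE), so that a value above 0 is higher in the clone. Each change was also fitted with an offset that removes the trend with transcript length and GC content, for reasons shown with the length data.

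The markers of the labelled cell type gave a mixed picture in both kinds. Of 11 such markers tested, 7 were higher and 4 lower in the clone, with a median log2 change of 1.22 against −0.018 over all tested genes. Their summed level was 5789 to 6752 CPM in the clone, 562 to 597 in pEpiC and 684 to 712 in CDC. Most of the clone's sum came from Upk3b, Lrrn4 and Upk1b. Each of these markers is also a member of the epicardial panel or the mesothelial list below, so the lists are not separate evidence. Wt1, Tbx18, Tcf21, Upk3b, Msln (mesothelin) and Lrrn4 were detected in every library of both kinds. The simple-epithelial keratins Krt8 and Krt18 were scarce in both, at 0.209 and 0.179 CPM in the clone and 2.76 and 2.03 CPM in pEpiC. Krt19, a further keratin among these markers, was called higher in the clone. Calb2 (calretinin), a common mesothelial marker, had 0 counts in all 6 libraries, which allows up to 0.134 CPM in the clone and 0.131 CPM in pEpiC (3 counts per library).

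The clone differed from primary epicardial cells at most genes. At an adjusted p below 0.05 (edgeR, quasi-likelihood, Benjamini-Hochberg) the comparison called 11091 of 13547 tested genes (81.9%), of which 5465 (40.3% of those tested) were higher and 5626 (41.5%) lower in the clone. Under the length and GC offset the called share was 80.5%, with 44.1% higher and 36.5% lower. That offset also moved the median log2 change of all tested genes from −0.018 to 0.081. Counts of higher and lower members of the gene lists below are to be read beside these shares. On the TPM scale, which moves the median of all genes by −0.309 on the log2 scale, 3691 were higher and 7541 lower. The libraries of both kinds did not overlap for 84.0% of tested genes, so separation of the libraries says little about any single gene here. At least 2-fold change was reached by 4860 called genes, or 35.9% of those tested.

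Large changes were unevenly split. Changes of at least 4-fold numbered 634 upward and 1488 downward in the clone, those of at least 8-fold 304 and 1032, and those of at least 32-fold 82 and 537. With the length and GC offset the 32-fold counts were 85 and 520. The counts over all sizes were near balance, while the steepest differences were mostly genes that the clone expressed little or not at all. Over all tested genes the median size of the log2 change was 0.714 and the median SE was 0.081.

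The epicardial panel, 8 genes that the study displays for epicardium, did not move as a block. In the clone 3 were higher, 4 lower and 1 did not pass the test (median log2 −0.23). Under the length and GC offset 4 were higher and 3 lower, and the median turned to 0.28.

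Upk3b, which encodes a uroplakin of the mesothelial surface and lies on chromosome 5 (136038496 to 136046487, GRCm38), had the largest change of the panel. Its level was 2459, 2870 and 2638 CPM in the clone libraries and 62.5, 67.1 and 78.6 CPM in those of pEpiC. CDC stood between them at a mean of 229 CPM. The clone was 38.2-fold higher, at a log2 change of 5.26 (SE 0.11, adjusted p 1.0e-10), and 5.25 with the offset.

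Wt1, a zinc-finger factor of the epicardium on chromosome 2 (105126529 to 105173616), was at 112, 114 and 133 CPM in the clone against 46.9, 54.6 and 51.9 CPM in pEpiC. Every clone library was above every pEpiC library, at a log2 change of 1.22 (SE 0.08, adjusted p 2.4e-07) that the offset left at 1.18. CDC were at 10.0 CPM.

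Tcf21, a basic helix-loop-helix factor of epicardial cells that give rise to cardiac fibroblasts, went the other way. It was at 26.5, 26.2 and 31.0 CPM in the clone and at 109, 101 and 95.5 CPM in pEpiC. The clone was lower by 1.87 on the log2 scale (SE 0.08, adjusted p 9.3e-09). Aldh1a2, the retinaldehyde dehydrogenase that makes retinoic acid in the epicardium, was lower still. Its level was 1.68, 1.95 and 2.39 CPM in the clone and 22.5, 19.8 and 17.8 CPM in pEpiC, a log2 change of −3.32 (SE 0.15, adjusted p 1.6e-08). CDC, at 2.31 CPM, lay beside the clone.

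The remaining panel genes differed little. Tbx18, the T-box factor of the epicardial lineage, was at 51.8, 63.9 and 53.7 CPM in the clone and 49.4, 50.2 and 47.9 CPM in pEpiC, a log2 change of 0.20 (SE 0.08, adjusted p 0.034) that became 0.80 with the offset and −0.18 on the TPM scale. Its call was lost without clone library 2 or without any 1 of the pEpiC libraries (adjusted p 0.052 to 0.099). Ets1, an ETS-family factor, overlapped between the kinds (54.8 to 70.9 against 68.0 to 81.1 CPM) and was lower in the clone by 0.27 (SE 0.10, adjusted p 0.025), a call that was lost without clone library 1, clone library 2 or pEpiC library 1 (adjusted p 0.069 to 0.106). Tjp1, the tight-junction scaffold ZO-1, has a long transcript (median 6576 bases). At 95.4 ± 2.95 CPM in the clone and 122 ± 2.12 in pEpiC it was lower in the clone by 0.36, but higher by 0.36 with the offset, and both calls passed the test. Lrp2, the endocytic receptor megalin, did not pass (19.7 against 22.6 CPM, log2 −0.20, adjusted p 0.098), though it did without pEpiC library 1 (log2 −0.28, adjusted p 0.021).

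**Figure D1:**
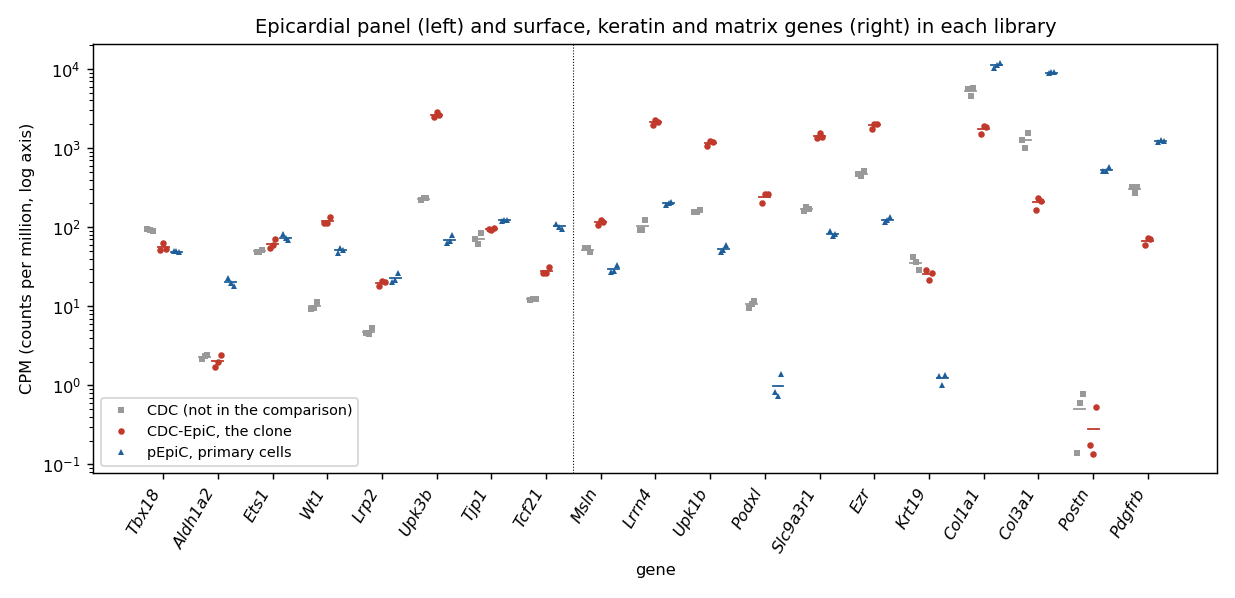
CPM in each library on a log axis for the 8 epicardial panel genes (left of the dotted line) and for surface, keratin and matrix genes (right), with CDC as grey squares, the clone as red circles, pEpiC as blue triangles and a short line at each mean. The 3 clone points of Upk3b lie at 2459 to 2870 CPM, all above pEpiC (62.5 to 78.6 CPM), while those of Aldh1a2 and Tcf21 lie below it.

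The wider mesothelial list, of which Upk3b is a member, was mostly higher too. Of 19 members tested, 15 were higher in the clone and 4 lower, with a median log2 change of 2.52 against −0.018 over all tested genes. The split was again 15 and 4 with the offset, at a median of 2.91. Lrrn4, a mesothelial surface protein with leucine-rich repeats, was at 1938, 2291 and 2138 CPM in the clone against 190, 204 and 206 CPM in pEpiC (log2 3.41, SE 0.08). Upk1b, the tetraspanin partner of uroplakins, was at 1162 against 53.3 CPM (log2 4.44, SE 0.09).

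Ezr (ezrin), which ties the membrane to actin, was at 1942 ± 168 CPM in the clone and 125 ± 7.42 in pEpiC (log2 3.96). Slc9a3r1, its scaffold partner, was at 1426 against 83.0 CPM (log2 4.10). Podxl (podocalyxin), a charged sialomucin of free cell surfaces on chromosome 6 (31519488 to 31563981), was at 203, 265 and 259 CPM in the clone and at 0.824, 0.741 and 1.4 CPM in pEpiC. That is a log2 change of 7.93 (SE 0.18, adjusted p 1.9e-10), and CDC were at 10.6 CPM. Gpm6a, a membrane glycoprotein, and Bnc1, a zinc-finger factor of mesothelium, were higher as well (log2 3.76 and 2.52).

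The exceptions were the keratins Krt8 and Krt18, the mucin gene Muc16 and Pdpn, while the keratins Krt7 and Krt19 were among the higher members. Pdpn (podoplanin), a mucin-like surface protein of mesothelium, lies on chromosome 4 (143267431 to 143299564). It was at 285, 284 and 303 CPM in pEpiC and at 0.0442, 0.182 and 0.355 CPM in the clone, a log2 change of −10.52 (SE 0.16, adjusted p 2.9e-11). CDC were near the clone, at 0.289 CPM. Muc16, the very large mucin known as CA125, was at 5.06 CPM in pEpiC and 0.462 in the clone.

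Junction genes were split, with 7 of 14 tested members higher, 6 lower and 1 not called. With the length and GC offset 9 were higher and 3 lower. Their median log2 change was 0.11, and it was 0.35 with the offset but fell below 0 with DESeq2, without a count filter and on the TPM scale. Cdh1 (E-cadherin), the adherens-junction cadherin of epithelia, was at 5.97, 4.90 and 6.91 CPM in the clone, and had at most 3 counts in each pEpiC library. The fitted log2 change was 6.00 (SE 0.31), and CDC were at 3.72 CPM. F11r, the junctional adhesion molecule JAM-A, was at 320, 308 and 311 CPM against 27.9, 30.9 and 31.1 CPM (log2 3.38, SE 0.06). Pard6b, a member of the polarity complex that sets up apical membrane, was at 129 against 15.4 CPM (log2 3.06). The catenins Ctnnb1 and Ctnna1, which tie cadherins to actin, were the most abundant members and differed by little (log2 −0.46 and −0.19, the latter 0.11 with the offset). Pkp3, a desmosomal plakophilin, was at 0.0299 against 0.871 CPM. Cdh2 (N-cadherin) was at 228 ± 3.00 CPM in the clone and 332 ± 20.7 in pEpiC, lower by 0.54, and showed no difference with the offset (log2 0.00).

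Other hallmarks of a columnar or glandular epithelium were at the floor. Of the 27 genes listed, 11 had at most 3 counts in every clone library, 10 in every pEpiC library and 8 in both. Epcam, an adhesion molecule of most epithelia, and Esrp1 and Grhl2, a splicing regulator and a transcription factor of such cells, were among those at the floor in both kinds.

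The transcripts of mesenchyme were lower in the clone. In the list of mesenchymal and transition genes, 13 of 17 were lower and 3 higher (median log2 −1.94; 14 lower and 2 higher with the offset, median −1.31). Pdgfrb, the PDGF receptor of mural cells and fibroblasts, was at 59.1, 72.4 and 71.7 CPM in the clone and 1204, 1259 and 1212 CPM in pEpiC (log2 −4.18, SE 0.08, adjusted p 9.9e-11). Its partner Pdgfra was at 61.0 against 352 CPM (log2 −2.53).

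Factors that drive the transition were also lower. Snai2 (Slug) was at 5.60 ± 0.669 CPM against 45.1 ± 3.45 (log2 −3.01), Zeb2 at 54.3 against 209 CPM (log2 −1.94) and Zeb1 at 34.1 against 104 CPM (log2 −1.61). Foxc2, a forkhead factor linked with the transition, was at 0.817 against 18.7 CPM (log2 −4.51). Vim (vimentin), the most abundant member, differed little (2222 against 1999 CPM, log2 0.15, adjusted p 0.046, and −0.12 with no call under the offset), and its call was lost without clone library 1 or 3 or any 1 pEpiC library (adjusted p 0.055 to 0.134). Twist1 did not pass the test (30.4 against 30.9 CPM), though it was called lower by 0.51 with the offset. S100a4, a calcium-binding protein often called fibroblast-specific, was higher in the clone at 644 against 163 CPM (log2 1.98, and 1.16 with the offset).

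Interstitial matrix genes were mostly lower in the clone, and their summed level was 23320 to 28300 CPM there and 79730 to 86060 in pEpiC. Of 30 members, 24 were lower in the clone, 4 higher and 2 not called, with a median log2 change of −2.37 (−2.10 with the offset). Col1a1 and Col1a2, the chains of type I collagen, were at 1738 and 3342 CPM in the clone against 11076 and 9995 in pEpiC (log2 −2.68 and −1.58). Col3a1, the chain of type III collagen, was at 167, 236 and 214 CPM against 8772, 9061 and 9202 CPM, a log2 change of −5.46 (SE 0.13, adjusted p 2.6e-10). Fn1 (fibronectin) was at 6532 ± 809 CPM against 15480 ± 1113 (log2 −1.25). Its share of all counts was 0.577% to 0.704% in the clone and 1.5% to 1.69% in pEpiC.

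Some matrix genes were nearly silent in the clone. Postn (periostin), a matricellular protein of activated fibroblasts on chromosome 3 (54361109 to 54391037), was at 517, 509 and 577 CPM in pEpiC and at 0.177, 0.136 and 0.532 CPM in the clone (log2 −10.86, SE 0.17, adjusted p 3.5e-11). Lum (lumican), a collagen-binding proteoglycan, was at 350 against 0.445 CPM (log2 −9.60). Type VI collagen was divided by chain, since Col6a1 and Col6a2 were higher in the clone (log2 2.41 and 2.42) while Col6a3 was at 0.103 against 37.5 CPM (log2 −8.42). Tnc (tenascin C) was also higher in the clone, at 438 against 181 CPM (log2 1.27).

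Transcripts of the basement membrane, the sheet on which a mesothelium rests, moved in both directions. Of 24 members, 16 were lower, 6 higher and 2 not called in the clone (median log2 −0.85, and −0.64 with the offset). With an offset for length alone 12 were lower and 9 higher (median −0.19). The common collagen IV chains Col4a1 and Col4a2 were lower (log2 −1.14 and −1.29), whereas Col4a4 (61.0 against 7.02 CPM, log2 3.12) and Col4a6 (205 against 45.7 CPM, log2 2.16) were higher. Lama2, the laminin chain of muscle and mesenchyme, was at 211, 235 and 257 CPM in pEpiC and at 0.0442, 0.136 and 0.443 CPM in the clone (log2 −10.10). Lama1, the laminin chain of early embryonic basement membranes, was at 0.0447 against 29.0 CPM (log2 −9.18). Of the nidogens, which link laminin to collagen IV, Nid1 was lower (189 against 1322 CPM, log2 −2.81) and Nid2 higher (982 against 139 CPM, log2 2.82).

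Genes known to respond to TGF-beta were mostly lower in the clone. The part of the inhibitor used to raise it was not tested and cannot be told apart from the other differences in culture. Of 14 members, 11 were lower, 2 higher and 1 not called (median log2 −1.98, and −1.31 with the offset). Pmepa1, a feedback inhibitor of the pathway, was at 9.91, 14.3 and 10.4 CPM in the clone and 330, 351 and 337 CPM in pEpiC (log2 −4.88, SE 0.11, adjusted p 2.2e-10). Itgb5, the integrin beta chain that binds vitronectin, was at 19 ± 0.311 CPM against 644 ± 10.6, a log2 change of −5.08. CDC were at 177 CPM for Pmepa1 and 243 CPM for Itgb5, between clone and pEpiC in both cases. Over the whole list CDC summed to 4390 to 5148 CPM, above pEpiC (3305 to 3386 CPM) and the clone (806 to 1080 CPM). Tgfbi, another member, was uneven within pEpiC at 56.6, 28.4 and 26.5 CPM.

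Smooth muscle genes were mostly lower, with 10 of 14 down and 4 up in the clone (median log2 −2.24, and −2.26 with the offset). Des (desmin), an intermediate filament of muscle, was at 0.265, 0.409 and 0.665 CPM in the clone and 78.5, 84.2 and 95.5 CPM in pEpiC (log2 −7.58, SE 0.16). Tagln (transgelin), an actin-binding protein of smooth muscle, was at 34.4 against 321 CPM (log2 −3.23). Acta2, smooth muscle actin, changed less, at 352 ± 65.4 against 547 ± 15 CPM (log2 −0.64). Mylk, the myosin light chain kinase, was higher in the clone at 844 against 111 CPM (log2 2.93), as were Smtn (log2 2.28) and the tropomyosin gene Tpm1 (log2 0.56). Cald1 (caldesmon), the most abundant member, was lower at 551 against 1468 CPM (log2 −1.42), and Actg2, enteric actin, was at 0.163 against 6.64 CPM (log2 −5.30).

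The targets of YAP and TEAD, the Hippo pathway's factors, moved in both directions, with 5 of 15 higher, 7 lower and 3 not called. Their median log2 change was −0.08 and turned to 0.04 with the offset. Over all tested genes the median went from −0.018 to 0.081, so the list lay slightly below it in both fits. Ctgf, a matricellular target, was at 51.8, 102 and 82.6 CPM in the clone against 737, 764 and 699 CPM in pEpiC (log2 −3.22), while Amotl2 was higher at 917 against 404 CPM (log2 1.18). F3, which encodes tissue factor, was lower at 60.5 against 286 CPM (log2 −2.25), and the receptor kinase gene Axl by 0.39.

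**Figure D2:**
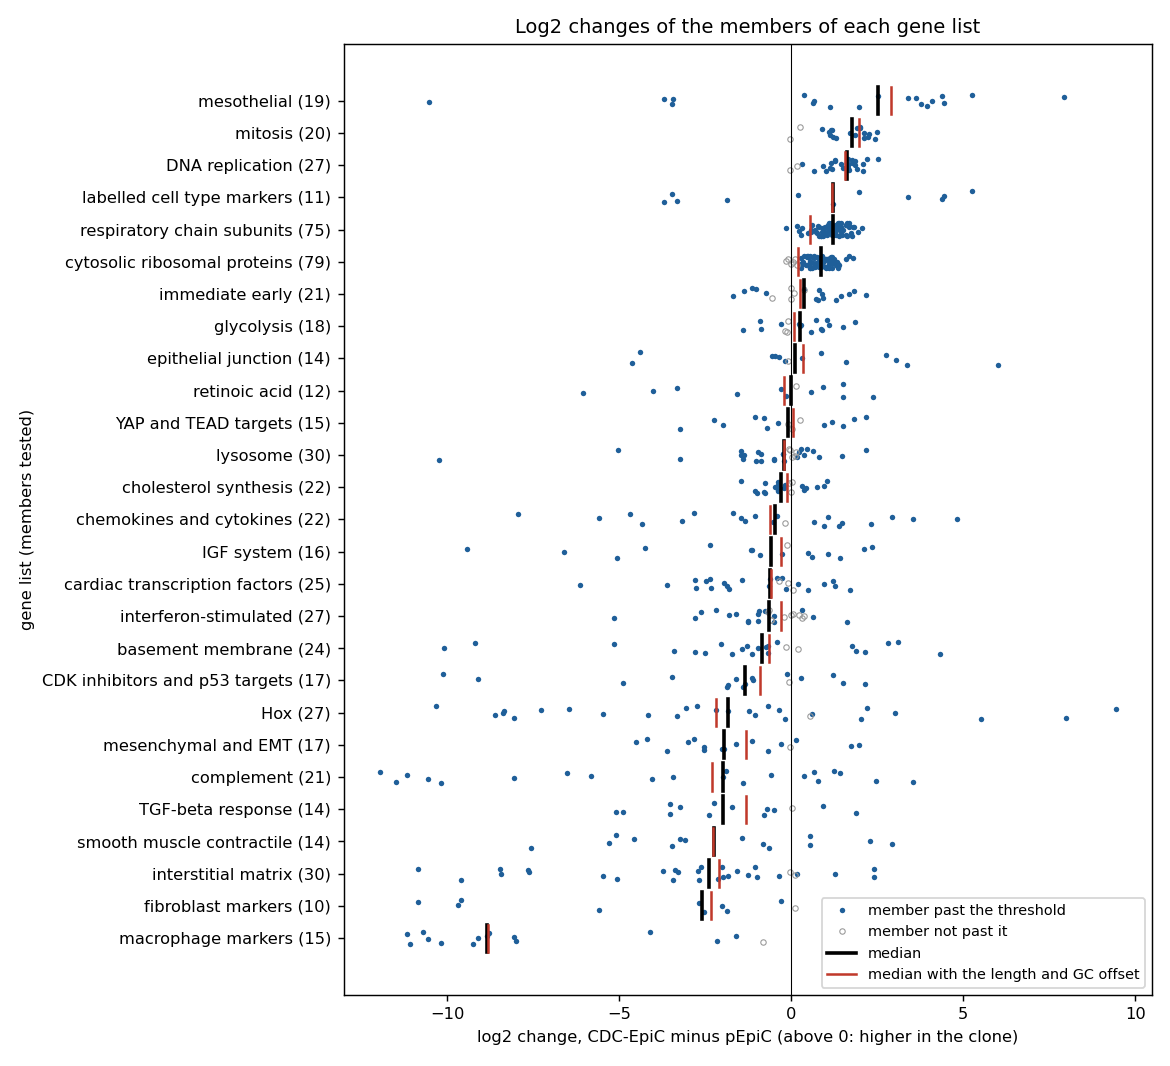
Log2 change (clone minus pEpiC) of each tested member of the gene lists that have at least 10 tested members. Filled points are past the threshold and open points are not. A black bar marks the list's median and a red bar its median under the length and GC offset. Mesothelial and mitosis lists lie mainly to the right of 0 (medians 2.52 and 1.77), interstitial matrix and macrophage lists to the left (medians −2.37 and −8.85), and the red bar of the ribosomal list lies nearer 0 than its black bar.

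Genes of cell division were higher in the clone. Of 20 mitosis genes tested, 18 were higher and none was lower (median log2 1.77), and with the offset all 20 were higher (median 1.96). Ccnb2, a B-type cyclin that drives entry into mitosis, was at 51.9, 37.4 and 51.7 CPM in the clone and 9.63, 7.97 and 7.58 CPM in pEpiC (log2 2.48, SE 0.14, adjusted p 1.2e-07). Cdc20, which activates the complex that ends mitosis, was at 61.8, 51.2 and 68.2 CPM against 11.5, 11.3 and 10.9 CPM (log2 2.42). Top2a, the DNA-untangling topoisomerase, was at 91.4 against 40.0 CPM (log2 1.19). The CDC means were 52.8 CPM for Ccnb2, 108 for Cdc20 and 185 for Top2a.

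Mki67, which codes for the proliferation antigen Ki-67, was 1 of the 2 mitosis genes that did not pass. It was at 62.5, 45.1 and 56.8 CPM in the clone and at 72.6, 45.4 and 49.0 CPM in pEpiC, a log2 change of −0.02 (adjusted p 0.90). Its transcript is among the longest of the list (10061 bases), and with the offset it was called higher in the clone, at 0.80 (adjusted p 0.0022).

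Promoters of 4 mitosis genes are shown because the members of that list moved together. Each is the 250 bases before the annotated start (RefSeq, GRCm38.p6), read 5′ to 3′ on the gene's strand. Capitals mark CCAAT, the box bound by NF-Y, and TTTGAA, the core of the cell cycle homology region, on either strand. The reverse forms are ATTGG and TTCAAA, and none of these matches can share more than its end letters with a match of the other motif.
Ccnb2 (chr9:70421555-70421804, minus strand): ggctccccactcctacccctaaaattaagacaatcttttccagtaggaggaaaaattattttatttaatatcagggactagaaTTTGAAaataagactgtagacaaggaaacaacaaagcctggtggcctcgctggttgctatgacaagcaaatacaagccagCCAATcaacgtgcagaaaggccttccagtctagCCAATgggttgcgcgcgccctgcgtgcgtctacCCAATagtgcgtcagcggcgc
Cdc20 (chr4:118437344-118437593, minus strand): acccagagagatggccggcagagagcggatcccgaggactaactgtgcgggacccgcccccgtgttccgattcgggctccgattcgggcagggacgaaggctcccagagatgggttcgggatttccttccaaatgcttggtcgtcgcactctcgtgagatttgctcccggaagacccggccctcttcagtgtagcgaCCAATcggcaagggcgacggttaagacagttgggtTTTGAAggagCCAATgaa
Top2a (chr11:99024190-99024439, minus strand): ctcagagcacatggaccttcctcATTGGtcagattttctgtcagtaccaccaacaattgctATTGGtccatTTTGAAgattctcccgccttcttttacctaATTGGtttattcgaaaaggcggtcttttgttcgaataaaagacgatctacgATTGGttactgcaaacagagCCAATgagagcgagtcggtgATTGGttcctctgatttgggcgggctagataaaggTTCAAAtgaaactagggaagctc
Mki67 (chr7:135716380-135716629, minus strand): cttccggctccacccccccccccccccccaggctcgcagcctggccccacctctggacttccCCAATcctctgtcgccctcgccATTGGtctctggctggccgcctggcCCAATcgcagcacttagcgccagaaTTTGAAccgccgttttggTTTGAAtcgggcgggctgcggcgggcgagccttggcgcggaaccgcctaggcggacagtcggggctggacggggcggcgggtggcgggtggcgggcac

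A CCAAT box on either strand was present in 14 of the 16 mitosis genes with a promoter in the table (87.5%) and in 36.6% of the promoters of 10579 tested genes. CCAAT and TTTGAA were together in 6 of the 16 (37.5%) against 4.15% of tested genes. These matches describe letters in a window and show neither binding nor a cause. Mki67, whose fitted change was near 0, carried both motifs as well.

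DNA replication genes gave a like picture, with 25 of 27 higher and none lower (median log2 1.61, and 1.56 with the offset). Mcm5, a subunit of the helicase that opens replication forks, was at 68.3, 58.3 and 74.9 CPM against 12.7, 10.2 and 12.0 CPM (log2 2.52, SE 0.11, adjusted p 1.4e-08). Cdt1, which licenses replication origins, was at 48.5 against 10.6 CPM (log2 2.20). Pcna, the sliding clamp of the polymerases, was at 147 against 46.4 CPM (log2 1.66). Rrm1, the large subunit of ribonucleotide reductase, did not pass (143 against 147 CPM) but was called higher by 0.59 with the offset. Promoters with CCAAT numbered 14 of 22 (63.6%), and those with TTCCCGC, a core of the E2F motif on either strand, 6 of 22 (27.3%) against 6.86% of tested genes.

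Brakes on the cell cycle were lower. Among 17 inhibitors of cyclin-dependent kinases and p53 targets, 12 were lower and 4 higher in the clone (median log2 −1.34, and −0.90 with the offset). Cdkn2a, which encodes p16 and p19ARF on chromosome 4 (89274471 to 89294653), had 0 counts in every clone library and was at 5.51, 6.10 and 6.74 CPM in pEpiC. The pEpiC level was at least 45.7-fold higher, against a floor of 3 counts per library. Its neighbour Cdkn2b (p15), at 89306299 to 89311039, was at 17.9, 20.2 and 20.6 CPM in pEpiC and had at most 1 count in a clone library. Both genes had 0 counts in every CDC library as well. The list as a whole, in contrast, summed to 1857 to 2070 CPM in CDC, above pEpiC (1654 to 1762 CPM) and the clone (929 to 976 CPM). Cdkn1a (p21), the main p53-driven inhibitor, was at 86.0 ± 6.15 CPM against 316 ± 21.9 (log2 −1.88), and Ccng1, another p53 target, at 138 against 496 CPM (log2 −1.85). Cdkn2c (p18) was higher in the clone at 54.3 against 12.3 CPM (log2 2.13).

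Ribosomal protein genes were higher in the clone, by an amount that fell when transcript length and GC content were taken into account. Of 79 cytosolic ribosomal proteins, 73 were higher, none was lower and 6 were not called (median log2 0.87). With the length and GC offset 44 were higher and 16 lower, at a median of 0.19. The median transcript of the list is 771 bases long. Rpl41, a tiny protein of the large subunit, was at 2023, 2006 and 1747 CPM in the clone and 580, 539 and 527 CPM in pEpiC (log2 1.81, and 0.70 with the offset). Rpsa, the ribosomal laminin-receptor protein, has a longer transcript (1768 bases), and its log2 change of 1.27 was 0.96 with the offset. Rplp0, a protein of the ribosomal stalk (1358 bases), went from 0.86 to 0.44. Rpl36 (383 bases) fell from 1.69 to 0.24.

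Respiratory chain genes were in the same position. Of 75 nuclear-encoded subunits, 74 were higher and 1 lower (median log2 1.21, median transcript 747.5 bases), and with the offset 62 were higher and 3 lower at a median of 0.54. Atp5b, the catalytic beta subunit of ATP synthase, was at 1346, 1327 and 1329 CPM against 634, 613 and 647 CPM (log2 1.08, and 0.89 with the offset). Uqcr11, a small subunit of complex III, was at 122 against 29.4 CPM (log2 2.06, and 0.75 with the offset). Atp5g3, a subunit of the ATP synthase rotor, had a change of 1.95 that became 1.30, and Atp5a1 one of 0.48 that became 0.37. None of the 13 genes encoded by the mitochondrial genome is in the table.

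Glycolysis was mixed, with 11 of 18 genes higher, 4 lower and 3 not called (median log2 0.27, which fell to −0.10 on the TPM scale). Gapdh was at 4668 ± 99.3 CPM in the clone against 1655 ± 86.4 (log2 1.49, and 0.97 with the offset), so it was no level reference between these cells. Pkm, pyruvate kinase, and Tpi1, triose phosphate isomerase, were higher too (log2 1.04 and 1.87). Hk2, a hexokinase, was lower at 43.6 against 79.8 CPM (log2 −0.88).

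Across all genes the change followed transcript length. Over 10648 genes above 5 CPM, the log2 change fell by 0.390 for each doubling of transcript length. The 9 pairs of a clone and a pEpiC library gave slopes of −0.406 to −0.338. Within a kind, the steepest pair had a slope of 0.0311 in size for the clone and 0.0377 for pEpiC, and the 9 pairs of clone and CDC libraries gave −0.0591 to 0.0807. The trend thus separated pEpiC libraries from the others and not libraries of a kind.

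By library, the slope of each library's deviation from the gene mean was −0.203, −0.192 and −0.172 in the clone and 0.166, 0.204 and 0.196 in pEpiC. The groups did not overlap, and an exact two-sided permutation test gave p = 0.10, the smallest that 3 against 3 can reach. Under the offset the slope was −0.0019, since the offset was built to remove it. FPKM sums, which depend on the length of what was sequenced, were 530151 to 553139 in the clone and 415930 to 429919 in pEpiC. The source of the trend was not tested.

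**Figure D3:**
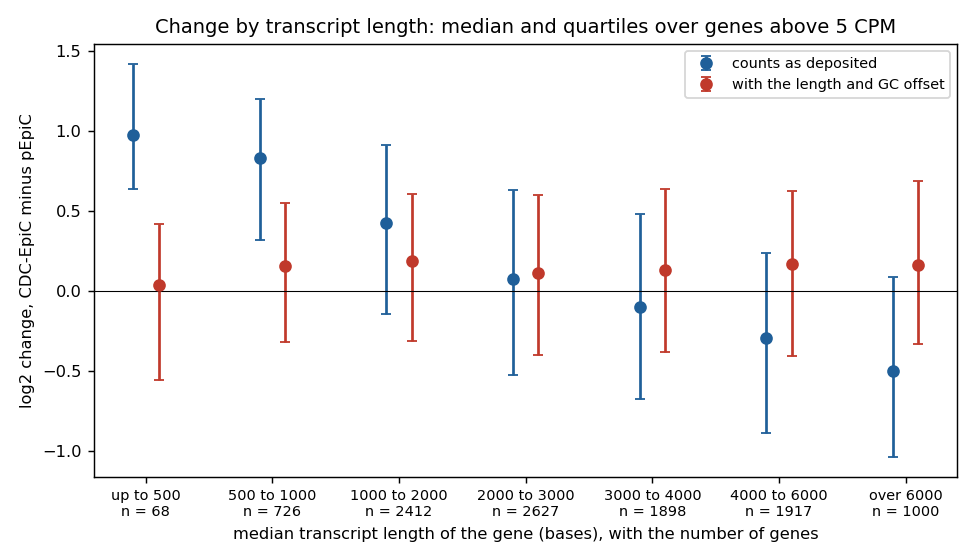
Median log2 change (clone minus pEpiC) of genes above 5 CPM by transcript length, as fitted and with the length and GC offset, with bars from the lower to the upper quartile. Without the offset the median falls from 0.98 for genes up to 500 bases to −0.50 for genes over 6000 bases, and with it every bin lies between 0.04 and 0.19.

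Genes of short transcripts were thus called higher more often. Among genes above 5 CPM, of 68 with transcripts up to 500 bases 82.4% were called higher and 7.35% lower in the clone, with a median log2 change of 0.98. Of 1000 genes over 6000 bases, 21.6% were called higher and 65.2% lower, with a median of −0.50. With the offset the shares were 38.2% and 36.8% in the short genes and 52.2% and 33.1% in the long ones.

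Small changes were the ones that most often lost their call or direction under the length and GC offset. That offset removes the trends with length and GC content together and moves the median of all genes. The parts of these were not told apart. Of 705 called genes with a log2 change of at most 0.25 in size, 335 kept call and direction under the offset, 170 were no longer called and 200 were called in the opposite direction. Of 2742 called genes from there up to 1.5-fold, 1621 kept it and 418 were turned. From 1.5-fold to 2-fold 2175 of 2784 kept it and 90 were turned, and from 2-fold to 4-fold 2635 of 2738 kept it and 2 were turned. Above 4-fold all 2122 kept call and direction. Over all sizes 80.1% of 11091 calls were kept, 13.5% were lost and 6.40% were turned, while 1314 of the 2456 genes not called at first were called with the offset.

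**Figure D4:**
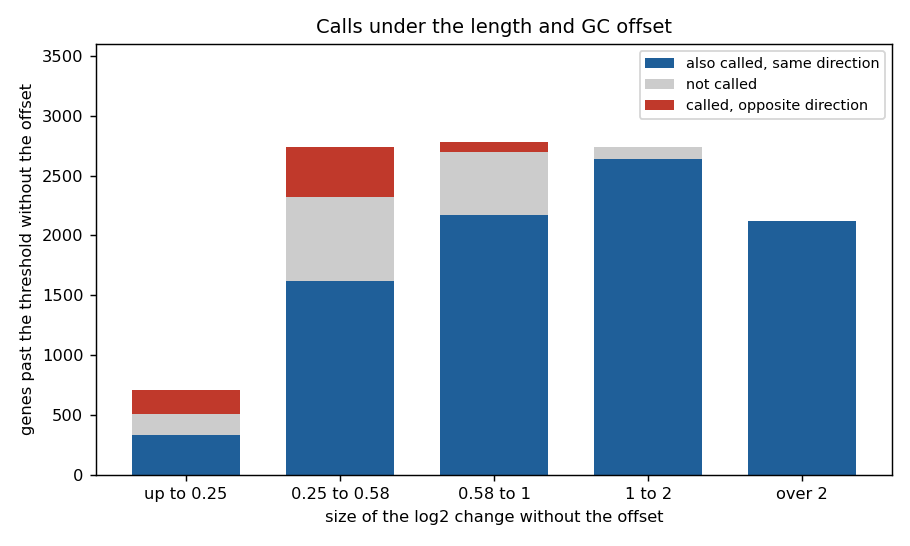
Genes past the threshold, grouped by the size of their log2 change, and what the length and GC offset made of each call. Of the 705 smallest changes 335 kept their call and direction, against all 2122 of those over 2 on the log2 scale.

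A set of genes was expressed in primary epicardial cells and at the floor in the clone. At most 3 counts in every clone library and at least 1 CPM in every pEpiC library were found for 323 genes, of which 173 were at the floor in CDC too. At 10 CPM or more in every pEpiC library there were 56 such genes. The opposite pattern held for 43 genes at 1 CPM and for 1 gene, Hpcal4, at 10 CPM.

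The genes with the highest pEpiC levels in that set include matrix and cytoskeletal proteins. Itgbl1, an integrin-like secreted protein, was at 134, 138 and 125 CPM in pEpiC, with 1 count in 1 clone library and none in the others. Heph (hephaestin), a copper-dependent iron oxidase of the cell surface, was at 138, 138 and 118 CPM in pEpiC with no count in any clone library, and so at least 979-fold higher there (3 counts per library as the floor). Pdlim3, an actin-associated LIM protein, was at 92.7 CPM and Dpt (dermatopontin), a matrix protein of fibroblasts, at 89.4 CPM. Transcription factors were represented by Zfp521 (61.0 CPM) and Ebf1 (49.97 CPM), both known from mesenchymal and blood lineages. Srpx2, Crispld2, Fibin and Fxyd6 complete the highest 10, at 49.8 to 69.6 CPM.

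Genes at the floor in pEpiC and expressed in the clone had lower levels. S1pr5, a receptor for sphingosine 1-phosphate, was at 9.64, 12.1 and 11.5 CPM in the clone with at most 3 counts in each pEpiC library (log2 6.90, SE 0.25), and Hpcal4, a neuronal calcium sensor, at 11 CPM. Hoxa10, a homeobox factor of posterior body regions, was at 10.1, 7.85 and 8.29 CPM in the clone and had at most 1 count in a pEpiC library. C4bp, Plac1, Cxcl17, Fa2h, Acox2, Bex2 and Cdh1 made up the rest of the 10, at 5.93 to 8.72 CPM.

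Of genes above 50 CPM in the clone, Vat1l, a gene related to the synaptic vesicle protein VAT-1 on chromosome 8 (114205612 to 114374071), had the largest rise. It was at 897, 1039 and 943 CPM in the clone and at 2.26, 2.92 and 4.03 CPM in pEpiC, with CDC at 38.2 CPM (log2 8.28, SE 0.14, adjusted p 5.0e-11). After Podxl came Lgals2, a galectin (160 against 0.885 CPM, log2 7.48), Klhdc8a (log2 6.83), Tnfsf18, the ligand of the receptor GITR (log2 6.48), and Ppp2r2b, a regulatory subunit of the phosphatase PP2A (log2 6.46). Rab3b, a small GTPase of regulated secretion, was at 417 against 5.90 CPM (log2 6.14). Dmrt2, a transcription factor, was at 162 against 2.32 CPM (log2 6.11), Prg4, the joint and serosal lubricant lubricin, at 335 against 5.14 CPM (log2 6.02), and Eepd1 at 85.5 against 1.51 CPM (log2 5.81).

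Among the largest falls not yet named, Mfap4, a protein of elastic fibres, was at 501, 496 and 409 CPM in pEpiC and 0.133, 0.318 and 0.266 CPM in the clone (log2 −10.91, SE 0.17). Grb10, an imprinted adaptor of growth factor receptors, was at 331, 367 and 374 CPM in pEpiC and 0.310, 0.272 and 0.133 CPM in the clone (log2 −10.52, SE 0.13). CDC were at 1.55 CPM for Mfap4 and at 3.52 CPM for Grb10.

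Per length, the most abundant transcripts also differed. Eef1a1, which brings aminoacyl-tRNA to the ribosome, led in both. By mean FPKM, the first 5 in the clone were Eef1a1 (5720), Ftl1 (4768), Rpl41 (4613), Tpt1 (3980) and Rps2 (3938). In pEpiC they were Eef1a1 (6356), Mgp (5070), Bgn (3776), Tpt1 (3212) and Sparc (3175). The 3 that led only in pEpiC are proteins of matrix. Mgp, the matrix Gla protein that restrains calcification, was at 162, 180 and 151 CPM in the clone and 2934, 2856 and 2736 CPM in pEpiC (log2 −4.11, SE 0.08). Bgn (biglycan) was lower by 3.72 and Sparc (osteonectin) by 0.99 on the log2 scale.

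Markers of other cell types differed between the kinds. Of 15 macrophage markers tested, 14 were lower in the clone and none was higher (median log2 −8.85, or −6.52 with members at the floor set to their bound). Ptprc (CD45) and Fcgr1 had 0 counts in every clone library, and 11 members in all were at the floor there. Within pEpiC the libraries were unequal. The summed level of the list was 1039 CPM in pEpiC library 1 against 384 and 359 CPM in libraries 2 and 3, and 30.4 to 33.3 CPM in the clone. Lyz2 (lysozyme) was at 441, 194 and 165 CPM in pEpiC and 0.885, 0.953 and 1.15 CPM in the clone (log2 −8.06). Mrc1, the mannose receptor, was at 88.8, 21.1 and 21.1 CPM in pEpiC with at most 1 count in a clone library. Cd68, which other cells with many lysosomes also make, was at 13.3 CPM in the clone and at 70.4, 25.3 and 25.3 CPM in pEpiC. Without pEpiC library 1, 14 were again lower, at a median of −8.08.

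Several genes of other lists were also highest in pEpiC library 1. The complement genes C1qa, C1qb and C1qc, which macrophages make, are members of the macrophage list too and so part of its sum. They were at 41.7, 84.3 and 55.8 CPM in pEpiC library 1 and at 13.9 to 28.0 CPM in the others, with at most 1 count in a clone library. C5ar1, a complement receptor, was at 28.0, 10.8 and 8.32 CPM and the lysosomal protease Ctss at 37.2, 17.0 and 19.1 CPM in pEpiC. Tgfbi and the chemokine gene Ccl9 (48.1, 22 and 20.8 CPM) were highest in library 1 as well. The part of macrophages in these differences was not tested.

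Fibroblast markers, most of which cultured epicardial cells can also make, were lower in the clone at 9 of 10 (median log2 −2.60). Their summed level was 3652 to 4298 CPM in the clone, 14046 to 15587 in pEpiC and 5477 to 6869 in CDC. Dcn (decorin), the remaining member, did not pass (1839 against 1704 CPM, adjusted p 0.27, and 0.044 without clone library 3). Pericyte and smooth muscle markers were lower at 5 of 6 and higher at 1 (log2 2.13), a gene without 10 counts in every library. Their sum was 67.0 to 81.9 CPM against 1263 to 1319 in pEpiC, nearly all of it Pdgfrb. Notch3, a receptor of mural cells, was at 7.24 against 44.8 CPM (log2 −2.63), while Cspg4 (NG2) and Myh11, smooth muscle myosin, were at 3.08 and 4.75 CPM in pEpiC and near 0 in the clone (0.0889 and 0.134 CPM).

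Of the endothelial, cardiomyocyte, nerve-sheath and fat markers listed, 6 of 10, 4 of 12, 3 of 5 and 2 of 5 had enough reads to be tested. Single members, Tnnt2 and Flt1 among them, were well above the floor in pEpiC. Endothelial markers were at 369 to 426 CPM in the clone and 387 to 405 in pEpiC, of which Eng, a TGF-beta co-receptor that other cells share, made up 386 and 296 CPM, and Cdh5 and Tie1 had 0 counts in the clone. Of 6 endothelial markers tested, 4 were lower and 2 higher in the clone, at log2 changes of −4.23 to 1.84. Flt1 and Tek, receptors for VEGF and angiopoietin, were among the lower (8.69 against 73.5 CPM and 0.937 against 17.6 CPM). Cardiomyocyte markers summed to 12.2 to 14.0 CPM and 138 to 155 CPM, and Tnnt2 alone was at 8.76 against 145 CPM (log2 −4.05). Tnni3 and Myl7 were higher in the clone at 1.54 and 1.25 CPM against 0.799 and 0.174, and Tnni3 was not called with the offset. The defining heavy chain Myh6 had at most 1 count in each of the 6 libraries. Of 3 Schwann cell markers tested S100b was lower (0.0893 against 0.741 CPM), while Mbp (31.6 against 31.0 CPM) did not pass. Both adipocyte markers tested were lower, Fabp4 at 1.86 against 31.3 CPM and Pparg at 3.00 against 5.51 CPM. No red blood cell gene had enough reads to be tested.

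Interferon-stimulated genes were lower at 14 of 27 members and higher at 3, with 10 not called (median log2 −0.64, and −0.29 with the offset), beside 41.5% lower and 40.3% higher over all tested genes. Library 3 of pEpiC stood above the others for several of them. Ifit3, an inducible antiviral protein, was at 129, 154 and 283 CPM in pEpiC and 21.5, 33.1 and 26.5 CPM in the clone (log2 −2.81, SE 0.28). Ifi44 was at 7.81, 8.19 and 32.0 CPM against 0.221 to 0.636 CPM (log2 −5.15, SE 0.72). Without pEpiC library 3 the list had 12 lower and 5 higher members (median −0.21), and without pEpiC library 1 it had 19 and 2 (median −0.94). The antigen-presentation genes B2m (1445 against 1164 CPM) and H2-D1 (338 against 288 CPM) did not pass the test, but were called higher without pEpiC library 3 (log2 0.48 and 0.33), and H2-D1 also without clone library 1 (log2 0.33).

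Complement genes were lower at 14 of 21 and higher at 7 (median log2 −1.97, and −2.30 with the offset). Besides the C1q genes, Serping1, the inhibitor of C1, was at 933, 861 and 872 CPM in pEpiC and 12.4, 19.1 and 15.6 CPM in the clone (log2 −5.82, SE 0.13). Cd59a, which protects cells from the membrane attack complex, had 0 counts in every clone library against 22.8, 20.3 and 21.7 CPM. Clu (clusterin), another inhibitor of that complex, was instead higher at 1408 ± 200 against 120 ± 16.1 CPM (log2 3.55). C3, the central component, was at 1029 against 654 CPM (log2 0.65), and Cd55, which speeds the decay of C3 convertases, at 169 against 30.5 CPM (log2 2.46).

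Chemokines and cytokines were split, with 12 of 22 lower and 9 higher (median log2 −0.47, which turned to 0.20 when every library had to hold 10 counts). The shares over all tested genes were 41.5% lower and 40.3% higher. Csf1, the growth factor of macrophages, was at 558, 713 and 697 CPM in the clone and 1275, 1329 and 1473 CPM in pEpiC (log2 −1.05). Cxcl12, a chemokine made by epicardium and stroma, was lower by 0.42. Il1rn, the natural antagonist of interleukin 1, was at 12.3 CPM in pEpiC and 0.0450 in the clone.

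The growth factor axis around IGF differed sharply by member, with 9 of 16 lower and 6 higher (median log2 −0.59, and −0.31 with the offset). All tested genes were lower at 41.5% and higher at 40.3%. Igfbp4, a binding protein that holds IGF back, was at 2549, 2874 and 2827 CPM in the clone and 586, 545 and 474 CPM in pEpiC (log2 2.36, SE 0.09). Pappa, the protease that cleaves it, was at 104, 108 and 107 CPM in pEpiC and 0.133, 0.136 and 0.177 CPM in the clone (log2 −9.43, SE 0.10). Igfbp5 (5.69 against 551 CPM, log2 −6.60) and Igfbp7 (49.1 against 925 CPM, log2 −4.24) were lower.

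Of the retinoic acid genes, 5 of 12 were higher and 6 lower, and the sign of their median (−0.0097) turned above 0 with at least 10 counts in every library, with an offset for length alone and without some single libraries, and was −0.21 with the length and GC offset. The synthesizing enzymes did not share a direction. Aldh1a1 was at 936, 827 and 899 CPM in the clone against 316, 311 and 312 CPM in pEpiC (log2 1.5), while Aldh1a3 was at 0.446 against 30.0 CPM (log2 −6.05), beside the lower Aldh1a2 given above. Among the receptors Rarb, itself a target of retinoic acid, was at 0.848 against 13.9 CPM (log2 −4.03) and Rxra at 252 against 132 CPM (log2 0.93).

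Cardiac transcription factors were lower at 16 of 25 and higher at 6 (median log2 −0.62, and −0.58 with the offset). Over all tested genes 41.5% were lower and 40.3% higher. Gata4 and Gata6, zinc-finger factors of heart and mesothelium, were the most abundant and were higher in the clone, at 255, 313 and 289 CPM against 84.0, 88.1 and 87.7 CPM for Gata4 (log2 1.72) and 342 against 142 CPM for Gata6 (log2 1.27). Mef2c, a factor of muscle and endothelium, was at 1.99 against 24.3 CPM (log2 −3.61), and Hey2, a Notch target, at 0.0151 against 1.42 CPM.

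Hox genes, which mark position along the body axis, formed a different set in the clone. Of 27 tested, 19 were lower and 7 higher (median log2 −1.85, and −2.18 with the offset). Hoxc4 was at 11.5, 12.3 and 11.5 CPM in pEpiC and Hoxd8 at 6.85, 6.93 and 7.53 CPM, while the clone had at most 2 counts of Hoxc4 in a library and none of Hoxd8. Hoxc13 was at 15.6, 18.7 and 18.2 CPM in the clone against 0.434, 0.392 and 0.307 CPM in pEpiC (log2 5.51, SE 0.16). Hoxa13 was at 3.80, 3.77 and 3.86 CPM in the clone with no count in any pEpiC library. CDC were low for these posterior genes, at 0.229 CPM for Hoxc13 and 0.0302 CPM for Hoxa13. The abundant Hoxb3 and Hoxb4 differed little (log2 −0.19 and −0.36).

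Lysosomal, cholesterol and immediate early genes had medians near 0. Their counts stand beside 41.5% lower and 40.3% higher over all tested genes. Lysosomal genes were lower at 16 of 30 and higher at 9 (median log2 −0.21), and Ctsk, the collagen-degrading cathepsin K, was at 3.56 against 117 CPM (log2 −5.04). The abundant cathepsin Ctsd was lower (log2 −0.88), and Ctsb did not pass (1591 against 1672 CPM). Cholesterol synthesis genes were lower at 13 of 22 and higher at 6 (median −0.29), among them Hsd17b7 (log2 −1.46), Idi1 (log2 −1.06) and Insig1 (log2 −0.76), with the master factor Srebf2 higher by 0.43. Immediate early genes were higher at 11 of 21 and lower at 5 (median 0.38, which fell to −0.01 on the TPM scale). Atf3 was at 18.7, 44.9 and 24.1 CPM in the clone against 7.46, 4.58 and 7.23 CPM (log2 2.18, SE 0.32) and Ier3 at 101 against 28.5 CPM (log2 1.82), while Jund was higher by 0.38 (−0.13 with the offset, not called) and Fosl2 did not pass (243 against 242 CPM).

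The shift was not even over the genome. The median log2 change of tested genes ranged over 0.945 between the autosomes and X, from −0.65 on chromosome 18 (371 genes) to 0.29 on chromosome 15 (531 genes), and over 0.712 with the offset. Chromosome 3 was at −0.49 (−0.20 with the offset), chromosome 7 at −0.21 (−0.30), chromosome 2 at 0.26 (0.41) and chromosome 15 at 0.28 with the offset. On chromosome 18, 65.8% of 371 tested genes were lower in the clone and 21% higher, against 41.5% and 40.3% over all genes. The 9 pairs of single libraries gave medians of −0.61 to −0.57 for chromosome 18 and −0.48 to −0.41 for chromosome 3. For the clone against CDC, which shares the clone libraries, the medians were −0.27 and −0.23 for these chromosomes and −0.02 for chromosome 15. For pEpiC against CDC, which shares the pEpiC libraries, they were 0.24, 0.20 and −0.23. On chromosomes 2 and 7 the medians were 0.25 and −0.23 for the clone against CDC. There pEpiC against CDC gave −0.02 and −0.03. The source of these medians was not tested.

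**Figure D5:**
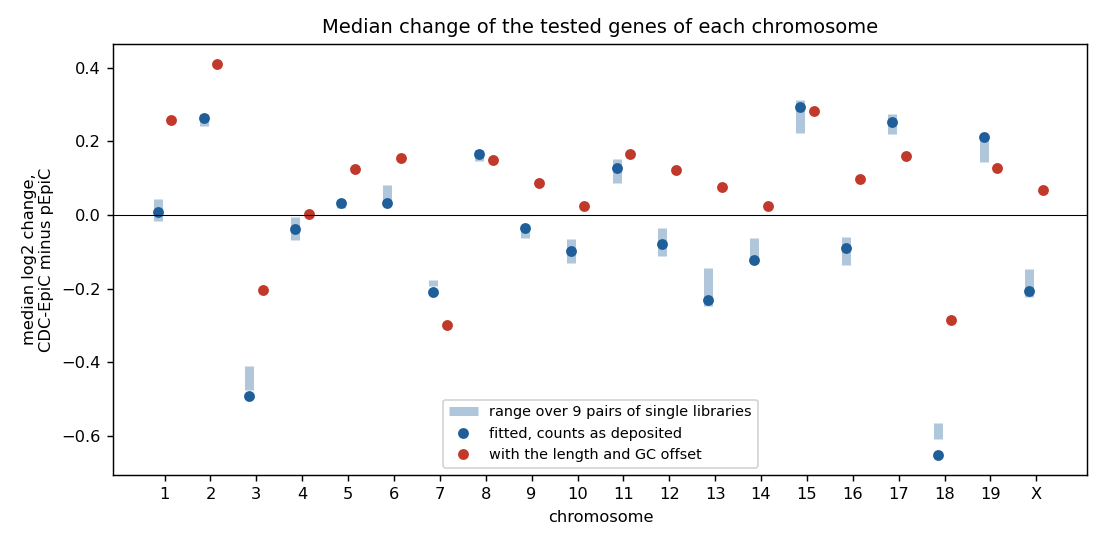
Median log2 change (clone minus pEpiC) of the tested genes of each chromosome, as fitted (blue), as the range over 9 pairs of single libraries (pale bars) and with the length and GC offset (red). Chromosome 18 lies lowest as fitted (−0.65) and chromosome 7 lowest with the offset (−0.30), and chromosome 2 lies above 0 in both (0.26 and 0.41).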

How the data were processed

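RNA was sequenced from 3 kinds of cell with 3 libraries each, of which 6 libraries were compared here. Per the labels, mRNA was selected on oligo(dT) beads, primed with random hexamers and read in pairs on a BGISEQ-500. The submitters' processing notes name HISAT2 2.0.4, Bowtie2 2.2.5, RSEM 1.2.12, DESeq2 1.4.5 and mm10. Whether strand was used is not stated, so overlapping genes cannot be told apart. The authors deposited expected counts per gene (30.3% of them not whole), FPKM and TPM in 1 table. Expected counts were rounded. The 9 columns of the authors' means were not used.

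GEO lists 1 sample per kind, and its 3 library columns were taken as replicates. Counts were fitted with edgeR 4.0.16 (R 4.3.3, TMM, filterByExpr at 10 counts and 15 in total, quasi-likelihood test, Benjamini-Hochberg, 0.05) on the 6 libraries. CPM levels use TMM factors over 9 libraries. The offset was a spline of library log ratios on transcript length and GC content (5 degrees of freedom). Lengths came from GENCODE M21 (GRCm38), matched by gene number for 17633 genes, by symbol for 187 and not at all for 425. The reported fit did not pair libraries by number.

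The members and gene lists were chosen with earlier results of these data known. Named genes are the 8 of the panel, the 10 largest rises and falls above 50 CPM whose libraries do not overlap, the 2 most abundant and 2 most changed members of each list, the 10 highest at the floor (3 counts) of the other kind, and the 5 highest by FPKM in each kind. Any other gene was named after its values were seen, and some genes that the rule covers are not reported here. Alternatives were another normalization (RLE, library size), other filters, DESeq2 1.42.0, limma 3.58.1 on log2(FPKM + 1), log2(FPKM + 0.1) and log2(TPM + 1), a 1.5-fold test, all 9 libraries, a replicate block and leaving out each library. A fold on a log2(value + pseudocount) scale understates the change of low genes.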

Additional observations from a re-analysis of the deposited data

How the results depend on the processing

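Of 13547 tested genes 11091 passed under the reported settings and 6578 when tested against 1.5-fold. The other normalizations, filters, tools and offsets gave 9898 to 11785, or 61.9% to 82.9% of the genes that each tested. The lowest count was 9898 of 12045 with at least 10 counts in every library (82.2%). The highest was 11785 of 17663 with no filter (66.7%), and DESeq2 called 10963 of 17697 (61.9%). A replicate block gave 11096. Deviations of same-numbered libraries correlated at 0.122, −0.0436 and 0.0501, and those of other-numbered libraries at −0.155 to 0.117. That shows no clear pairing by number, and so few libraries cannot exclude it. Leaving out 1 library gave 10760 to 11076, with 13698 to 13792 genes tested. On log2(TPM + 1) 32.9% of the calls were higher in the clone, against 49.3%. Genes of at least 2-fold numbered 3211 on log2(FPKM + 1), against 4860. The slope on length was −0.441 with the effective length and −0.402 to −0.382 without 1 library. The span between chromosomes was 0.712 with the length and GC offset, 0.917 for genes above 20 CPM and 0.915 to 0.947 without 1 library. Medians of these lists changed sign, on the log2 scale: epicardial panel (0.282 under the length and GC offset and 0.198 under length alone), junction (−0.113 with DESeq2, −0.0877 with no filter, −0.227 on TPM), YAP and TEAD targets (0.0418 and 0.192 under the same offsets), glycolysis (−0.103 on TPM), chemokines (0.205 with at least 10 counts in every library), immediate early (−0.0110 on TPM), retinoic acid (0.0819 with at least 10 counts, 0.135 with a length offset, and −0.198 to 0.130 without 1 library, above 0 without clone library 3 (0.0377), pEpiC library 1 (0.0894) or pEpiC library 3 (0.130)), cardiomyocyte (0.241 with DESeq2, 0.254 with no filter, 0.231 on FPKM + 1, 0.136 on TPM, 0.166 on FPKM + 0.1) and adipocyte (0.0214 with DESeq2, 0.0395 with no filter). Among named genes the sign changed on TPM for B2m (−0.0606), Dcn (−0.282), Eng (−0.0043), H2-D1 (−0.156), Jund (−0.0110), Mbp (−0.337), Tbx18 (−0.183), Tpt1 (−0.0545) and Vim (−0.233). It changed with the length and GC offset for Cdh2 (0.00059), Ctnna1 (0.113), Ctsb (0.355), Fosl2 (0.295), H2-D1 (−0.0855), Jund (−0.134), Lrp2 (0.201), Mbp (−0.301), Mki67 (0.803), Rrm1 (0.594), Tjp1 (0.364), Tpt1 (−0.0346) and Vim (−0.120), and with a length offset for B2m (−0.272), Ctnna1 (0.0995), Ctsb (0.351), Dcn (−0.0445), Fosl2 (0.574), Lrp2 (0.179), Mbp (−0.0740), Mki67 (0.677), Rrm1 (0.279), Tjp1 (0.217) and Tpt1 (−0.105). Fosl2 was at 0.0107 with no filter and 0.0013 with all 9 libraries, and Mbp at −0.0203 with at least 10 counts. Leaving out 1 library gave values on both sides of 0 for Ctsb (−0.142 to 0.0189), Fosl2 (−0.0564 to 0.0672), Mbp (−0.0334 to 0.0844), Mki67 (−0.157 to 0.212), Rrm1 (−0.101 to 0.0293) and Twist1 (−0.0934 to 0.0420). The median of all tested genes was itself 0.081 under the length and GC offset and 0.061 under length alone, against −0.018. The cause of these changes was not tested beyond what each setting removes. With 3 libraries a kind, an exact permutation test of a single value cannot go below 0.10.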
